A study of Rattus norvegicus with 8 samples.

Results

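The genes described here encode vimentin and other intermediate filament proteins (Vim, Des, Nes, Krt8, Krt18, Krt19) and the contractile cytoskeleton of smooth muscle (Acta2, Tagln, Myh11, Cnn1). They were chosen by name, with every probe on the array taken, to set vimentin of the Sertoli cells beside the contractile genes of the peritubular cells. Of these 10 genes, 9 had a probe, out of 35581 distinct gene names on the array. The array's own names gave 8 probes of 6 genes. Accessions gave 4 more probes of 3 keratin genes, which the array calls Krt2-8, Krt1-18 and Krt1-19. Acta2, smooth muscle alpha actin and the usual marker of peritubular myoid cells, was matched to no probe by name or accession and was not analysed here.

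RNA came from whole fetal testes of Sprague-Dawley rats explanted at mid-gestation and cultured for 72 h, so every cell type of the organ contributed. One testis was exposed to 1 µM mono-(2-ethylhexyl) phthalate (MEHP), the active metabolite of a phthalate plasticizer, and 3 testes from different litters to 10 µM. Each was hybridized on 2 two-colour arrays, with the dyes exchanged, against RNA pooled from 3 testes cultured with the vehicle, dimethyl sulfoxide. Every comparison therefore shares 1 control sample. Of the markers that define the tissue, the brightest probes of Amh, Sox9 and Insl3 were well above background in the vehicle channel of all 8 arrays. Most other markers were not. By brightest probes, 3 of 10 Sertoli, 1 of 7 Leydig and 0 of 4 germ cell markers on the array met this.

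Intermediate filaments are rope-like polymers whose subunits differ between cell types. Fetal Sertoli cells carry vimentin together with the simple-epithelial keratins 8 and 18, and keratin 19 appears in the same fetal cells. Vimentin is also made by fibroblast-like, endothelial and peritubular cells. Peritubular myoid cells surround the seminiferous cords and, as they mature, take up desmin, alpha actin, smooth muscle myosin, calponin and transgelin.

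All ratios below are log2 of the MEHP signal over the vehicle signal on 1 array, after the dye normalization made by the authors, so that -1 is a fall to 1/2 of the vehicle level. The labels put MEHP on Cy3 for all arrays, whereas the methods exchange the dyes within each pair. MEHP was taken as Cy3 in the first hybridization and Cy5 in the repeat. This direction is likely rather than settled. It follows the labels for the first hybridization and the methods for the exchange. Red-over-green ratios correlated negatively within each pair (r from -0.82 to -0.50 over 3668 probes), as an exchange of dyes gives in either direction. If it were the other way round, every sign would turn together and no size or p-value would change.

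The second testis at 10 µM stood apart. In its MEHP channel 0.249% and 1.54% of spots were well above background, against 7.8% to 29.8% on the other arrays. The signal over background of the 320 labelled spike-in spots was 6.97 and 54.6 in that channel, and 838 to 2324 in the MEHP channel of the other arrays. Its ratios over all 9996 tested probes had a median of -1.14, against 0.09 and -0.20 in the other testes at 10 µM and 0.02 at 1 µM. The part of this in the results was not tested, and the means of the measured members are given with and without that testis. The arrays lay on 2 slides, with testes 1 and 2 at 10 µM on one and testis 3 and the 1 µM testis on the other.

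The promoters of Vim, Krt18 and Des are shown because the ratios of the first pair lay below that of Des on every array. Each line holds the 250 bases before the transcription start, 5′ to 3′ on the gene's strand, from RefSeq on assembly GRCr8. They lie at chr17:81577011-81577260 for Vim, chr7:135035918-135036167 for Krt18 and chr9:84299376-84299625 for Des, all on the plus strand. Capitals mark matches, on either strand, to 4 short motifs. These are the TATA box, searched as TATAAA, the GC box at which Sp1-type factors bind, searched as GGGCGG, the CCAAT box, searched by those letters, and the E-box of myogenic factors, searched as CAGCTG.
Vim: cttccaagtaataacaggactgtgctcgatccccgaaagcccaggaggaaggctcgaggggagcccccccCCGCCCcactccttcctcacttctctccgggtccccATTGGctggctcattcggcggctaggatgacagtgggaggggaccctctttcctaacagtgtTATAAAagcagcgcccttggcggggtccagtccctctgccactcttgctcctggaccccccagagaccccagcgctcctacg
Krt18: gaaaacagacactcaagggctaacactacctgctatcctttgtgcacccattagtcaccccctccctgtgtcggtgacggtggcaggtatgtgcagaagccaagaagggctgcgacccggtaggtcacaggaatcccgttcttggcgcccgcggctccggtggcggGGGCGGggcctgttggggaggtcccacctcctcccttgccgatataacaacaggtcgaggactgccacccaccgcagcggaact
Des: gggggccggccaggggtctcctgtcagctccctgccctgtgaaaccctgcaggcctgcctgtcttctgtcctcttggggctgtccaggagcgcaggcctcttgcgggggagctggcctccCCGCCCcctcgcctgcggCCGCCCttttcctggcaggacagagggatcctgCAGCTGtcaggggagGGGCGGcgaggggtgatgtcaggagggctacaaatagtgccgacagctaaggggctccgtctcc
The Vim window held a TATA box, with its first base 82 bases before the start, and a GC box and a CCAAT box on the other strand. That of Krt18 held a single GC box, 84 bases before the start. That of Des held 3 GC boxes and an E-box, and no match overlapped another in these windows. Of 33469 such windows, 12.9% held the TATA box, 30.5% the GC box, 34.0% the CCAAT box and 12% the E-box. The strict CArG box, the motif bound by serum response factor at many contractile genes, was in 1.5% of windows and in none of the 7 member genes with a window (Vim, Des, Nes, Krt8, Krt18, Acta2 and Cnn1). It was searched with no mismatch allowed, and CArG-like elements that depart from the strict form were not looked for. These matches are a description of the letters alone.

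Vimentin RNA was lower in MEHP-exposed testes than in the vehicle pool on all 8 arrays, by amounts that differed widely between testes. The ratios of the first and repeat hybridization were -0.51 and -0.66 in testis 1 at 10 µM, -3.23 and -2.92 in testis 2, and -1.63 and -1.59 in testis 3. In the 1 µM testis they were -0.38 and -0.33. The hybridizations of a testis thus differed by far less than the testes did. In signals, the vehicle channel ranged from 1336 to 7445 over the 8 arrays and was well above background on each. The MEHP channel ranged from 1303 to 5141 outside testis 2. In testis 2 it was 761 and 176, not well above background in either hybridization. The size of the ratio in testis 2 thus rests on a treated signal close to background.

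The mean of the 3 testes at 10 µM was -1.76 ± 1.25 (SD, n = 3), with a 95% interval of -2.87 to -0.64, and limma gave an adjusted p of 0.0662. Vim therefore did not pass the adjusted threshold of 0.05, which 1.85% of tested probes passed as lower and 0.37% as higher. Without testis 2 the mean was -1.10 and the adjusted p 0.0623, where 9.64% of probes were called lower and 7.23% higher. Within each testis, Vim lay at percentile 17.9, 0.96 and 8.18 of all tested probes at 10 µM, and at percentile 21.3 at 1 µM. Its place in the lower part of the distribution was thus shared by testes 1 and 3 and the 1 µM testis, while its distance from 0 was not. The percentile in testis 2 rests on MEHP signals not well above background. After normexp correction and loess the mean was -0.53 (adjusted p = 0.314).

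**Figure D1:**
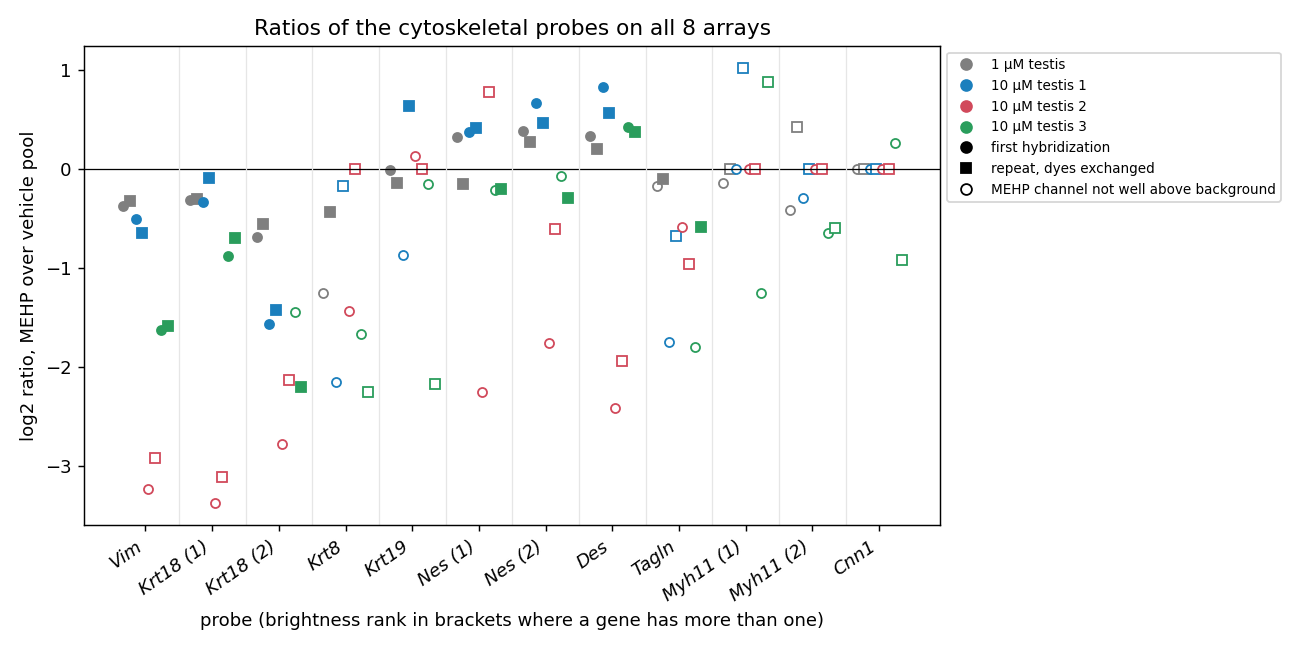
The log2 ratio of MEHP over the vehicle pool on each of the 8 arrays (vertical axis) for the 12 probes of 9 genes (horizontal axis), coloured by testis, with circles for first and squares for repeat hybridizations and open symbols where the MEHP channel was not well above background. All 8 points of Vim and of both Krt18 probes lie below 0, and every point of testis 2 is open.

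Keratin 18, the type I keratin that pairs with keratin 8, had 2 probes, whose ratios were both below 0 but of unequal size. The brighter probe gave ratios of -0.34 and -0.09 in testis 1, -3.38 and -3.11 in testis 2, and -0.88 and -0.70 in testis 3. The dimmer probe gave -1.57 and -1.43, -2.78 and -2.14, and -1.45 and -2.21 in the same testes. All 12 values at 10 µM were below 0, but outside testis 2 the groups of values from the probes did not overlap, the dimmer one being the lower.

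The dimmer Krt18 probe was the only member probe to pass the test at 10 µM. Its mean ratio was -1.93 ± 0.49 (SD, n = 3), or 0.262 of the vehicle level, and limma's adjusted p was 0.0431. The vehicle channel was well above background on all 6 arrays, but the MEHP channel on 3 of 6. It was so on neither array of testis 2 and in testis 3 in the repeat alone. The size of this mean thus rests in part on treated signals close to background. Without testis 2 the fall was 1.66 and the adjusted p 0.0137. Leaving out testis 1 or testis 3 ended the call, with means of -2.14 and -1.98 and adjusted p-values of 0.259 and 0.849. Either hybridization alone, a slide block and a testis block also ended it, with adjusted p-values from 0.06 to 0.356. The brighter probe had a mean of -1.42 ± 1.61 (adjusted p = 0.151), or -0.51 without testis 2 (adjusted p = 0.324). At 1 µM the probes gave -0.31 and -0.30, and -0.69 and -0.56. The dimmer minus the brighter probe was -1.28, 0.78 and -1.03 in the testes at 10 µM and -0.32 at 1 µM, so the probes of this gene disagree on its size.

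**Figure D2:**
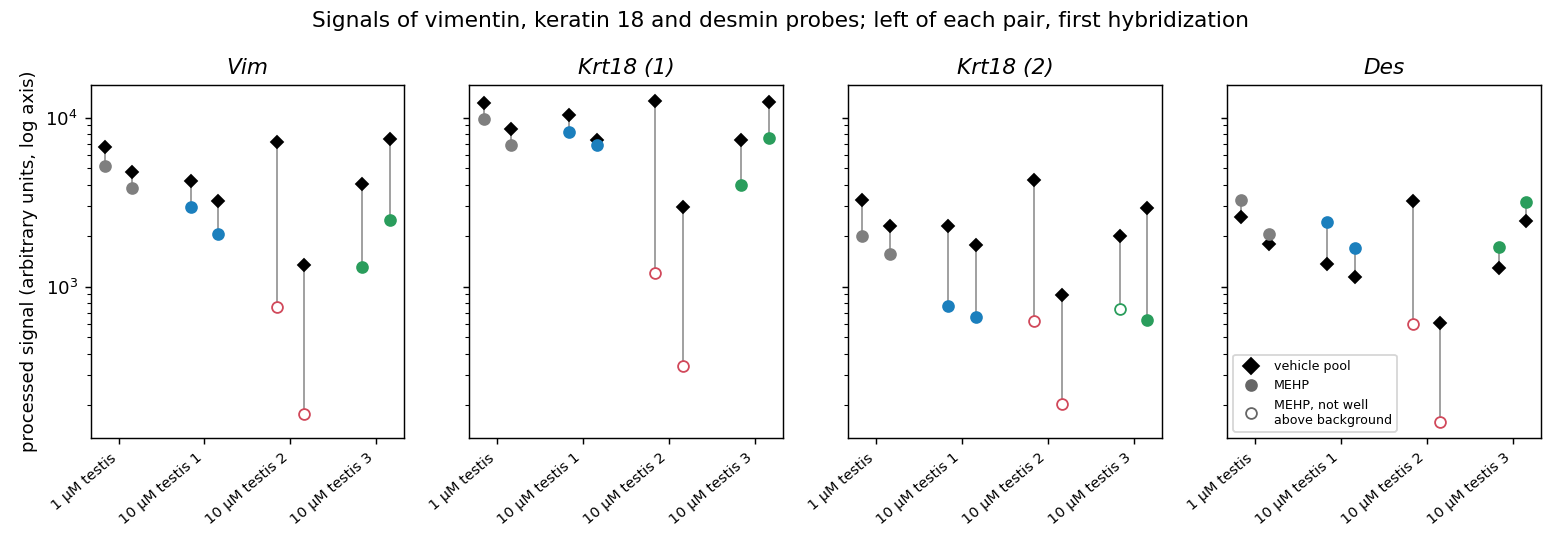
Processed signals (arbitrary units, log axis) of Vim, both Krt18 probes and Des in each hybridization of the 4 testes, with diamonds for the vehicle pool, circles for MEHP and open circles where MEHP was not well above background. For Vim and Krt18 the MEHP point lies under the vehicle point in every pair, whereas for Des it lies above it in 6 of 8 pairs and far below it in testis 2.

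Keratin 8, the type II partner of keratin 18, had 1 dim probe. In the vehicle channel it was well above background on 3 of 6 arrays at 10 µM, with signals from 46.8 to 793. In the MEHP channel it was well above background on none of the 6, with signals from 41.5 to 291. Neither the measured values nor the bound that the detection limit gives allow a fold at 10 µM. The probe reached the test through the vehicle channel alone, so no p-value is given for it. At 1 µM the ratios were -1.25 and -0.44, and the MEHP channel was well above background in the repeat alone.

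Keratin 19, a type I keratin of simple and duct epithelia as well as of fetal Sertoli cells, showed no common direction. Its ratios were -0.88 and 0.63 in testis 1, 0.13 and 0 in testis 2, and -0.16 and -2.18 in testis 3. The mean was -0.41 ± 0.66 (adjusted p = 0.757) with a 95% interval from -1.51 to 0.69. Without testis 2 the mean was -0.65 (adjusted p = 0.244). The exchange of dyes changed the value by more than 1.5 units in testes 1 and 3, where 1 of the 4 MEHP signals was well above background. At 1 µM it was -0.01 and -0.15.

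Nestin, an intermediate filament protein of immature and dividing cells that assembles together with vimentin, had 2 probes. The brighter gave 0.37 and 0.41 in testis 1, -2.26 and 0.78 in testis 2, and -0.21 in both hybridizations of testis 3. The dimmer gave 0.66 and 0.46, -1.76 and -0.61, and -0.07 and -0.30. Testis 1 was thus above 0 and testis 3 below it with both probes. Their means were -0.19 ± 0.57 and -0.27 ± 0.88, with adjusted p-values of 0.906 and 0.852. Without testis 2 the means were 0.09 and 0.19. At 1 µM the brighter probe gave 0.32 and -0.15, and the dimmer 0.38 and 0.27.

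Desmin, the muscle-type intermediate filament protein of peritubular myoid cells, was the contractile-cell gene measured best. Its ratios were 0.82 and 0.57 in testis 1, -2.42 and -1.95 in testis 2, and 0.42 and 0.37 in testis 3. At 1 µM they were 0.32 and 0.19. The MEHP level was above that of the vehicle pool on the 6 arrays of 3 testes and below it on both arrays of testis 2, where it was not well above background. The mean at 10 µM was -0.37 ± 1.58 (adjusted p = 0.789). Leaving that testis out gave 0.54 (adjusted p = 0.279).

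Transgelin (SM22 alpha), an actin-binding protein of smooth muscle, was lower in all hybridizations. The ratios were -1.75 and -0.68 in testis 1, -0.59 and -0.96 in testis 2, and -1.80 and -0.59 in testis 3. In testes 1 and 3 the value thus depended strongly on the exchange of dyes. Its mean of -1.06 ± 0.25 had the smallest SD of the 9 tested probes but did not pass the test (adjusted p = 0.304). That SD is taken after both hybridizations were averaged and leaves out the difference between them. The probe was dim, with the vehicle channel well above background on 3 of 6 arrays and the MEHP channel on 1 of 6. Without testis 2 the mean was -1.21 and limma's adjusted p 0.0333. However, 3 of the 4 treated signals behind them (53.7, 74.4 and 69.8) were not well above background. That mean is therefore not a measured size, and the p-value is not read as support for a fall. At 1 µM the ratios were -0.18 and -0.10.

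Smooth muscle myosin heavy chain (Myh11, 2 probes) and calponin (Cnn1, 1 probe) were too dim to be tested at 10 µM. Of 18 readings in the MEHP channel at that dose, 0 were well above background. In the vehicle channel 1 of 18 was, a Myh11 probe in testis 3. These mature contractile markers were therefore near the background of the array in treated and control explants alike, and no direction is given for them. Desmin and transgelin are the only members that carry the smooth muscle side of the comparison.

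Vimentin was set against these genes as the difference of ratios on the same array, which a shift of a whole array does not move. On the first and repeat arrays Vim minus Des came to -1.33 and -1.22 in testis 1, -0.82 and -0.97 in testis 2, and -2.05 and -1.96 in testis 3. At 1 µM it was -0.70 and -0.52. All 8 values were below 0, and the mean over the testes at 10 µM was -1.39 ± 0.57 (SD, n = 3), or -1.64 without testis 2. In testis 2 no MEHP signal of Vim, Krt18, Des or Tagln was well above background. Among the probes of these genes, the brighter the vehicle signal there, the lower was the ratio. On the first array of testis 2 vehicle signals of 12554.5 (brighter Krt18 probe), 7156 (Vim), 3210 (Des) and 524 (Tagln) went with ratios of -3.38, -3.23, -2.42 and -0.59. Krt19, with a vehicle signal of 904 and a ratio of 0.13 on that array, departed from this order. The sign of a difference in testis 2 is thus no measure of 1 gene against another. A ratio below that of Des on all 8 arrays was found for 572 of 9876 probes, or 5.79%. Fewer vimentin-bearing cells and less vimentin RNA per cell cannot be told apart in RNA of a whole testis.

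Against transgelin the order was not kept. Vim minus Tagln was 1.24 and 0.03 in testis 1, -2.64 and -1.96 in testis 2, and 0.17 and -1.01 in testis 3. At 1 µM it was -0.20 and -0.22. The values lie on both sides of 0, with 5 of 8 below it and a mean of -0.70 ± 1.49, or 0.11 without testis 2. For Vim minus the median of Des and Tagln, the difference was -0.32, -1.60 and -1.21 in the testes at 10 µM and -0.41 at 1 µM. Its mean was -1.04 ± 0.65, and it lay between -0.77 and -1.41 when 1 testis was left out. Outside testis 2, Vim thus lay below Des on every array and on either side of Tagln. In testis 2 the differences rest on MEHP signals not well above background. These differences are a description, with no test.

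Krt18 followed Vim in this. The brighter Krt18 probe minus Des was -0.91, -1.06 and -1.19 in the testes at 10 µM (mean -1.05 ± 0.14) and -0.57 at 1 µM, below 0 on all 8 arrays. The dimmer probe minus Des was below 0 on all 8 arrays as well, with -2.19, -0.28 and -2.22 at 10 µM and -0.89 at 1 µM. In testis 2 these differences too rest on MEHP signals not well above background. Vim minus the brighter Krt18 probe was -0.37, 0.17 and -0.82 at 10 µM and -0.04 at 1 µM. The difference between Vim and this Krt18 probe thus had no common sign.

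**Figure D3:**
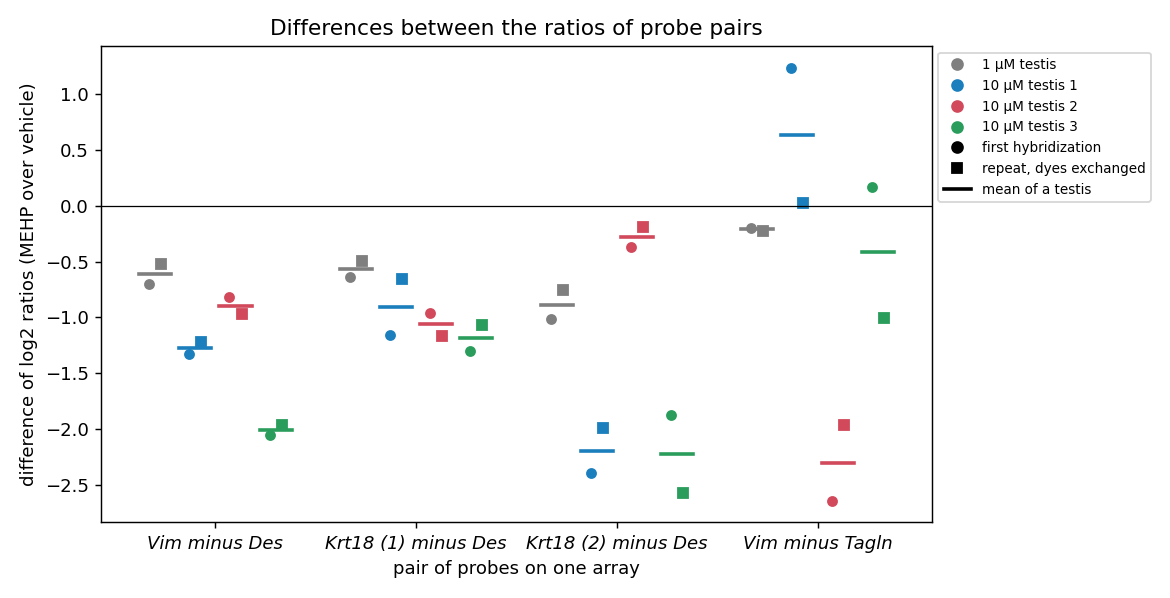
Differences between the log2 ratios of probe pairs on the same array (vertical axis), with points for hybridizations and bars for the mean of each testis, coloured by testis. The differences from Des are below 0 on all 8 arrays for Vim and both Krt18 probes, whereas Vim minus Tagln spans 0.

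Taking the members as a group, 4 of the 9 tested probes (Vim, both Krt18 probes and Tagln) were below 0 in all 6 hybridizations at 10 µM, against 19.1% of all tested probes. By the brightest tested probe of each gene, the 7 genes had medians of -0.22, -0.78 and -1.17 in testes 1 to 3, and the 8 genes counted at 1 µM one of -0.11. The medians of all tested probes were 0.09, -1.14, -0.20 and 0.02. The median of these genes in testis 2 is the value of Tagln, and no MEHP signal of a member was well above background there. The bright probes of Vim, Krt18 and Des had -3.08, -3.25 and -2.18 in that testis, and the dim probe of Krt19 0.07. That median is thus no measure of the group. The members were spread over most of the range of each testis, from percentile 0.58 (brighter Krt18) to 92.4 (Krt19) in testis 2.

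**Figure D4:**
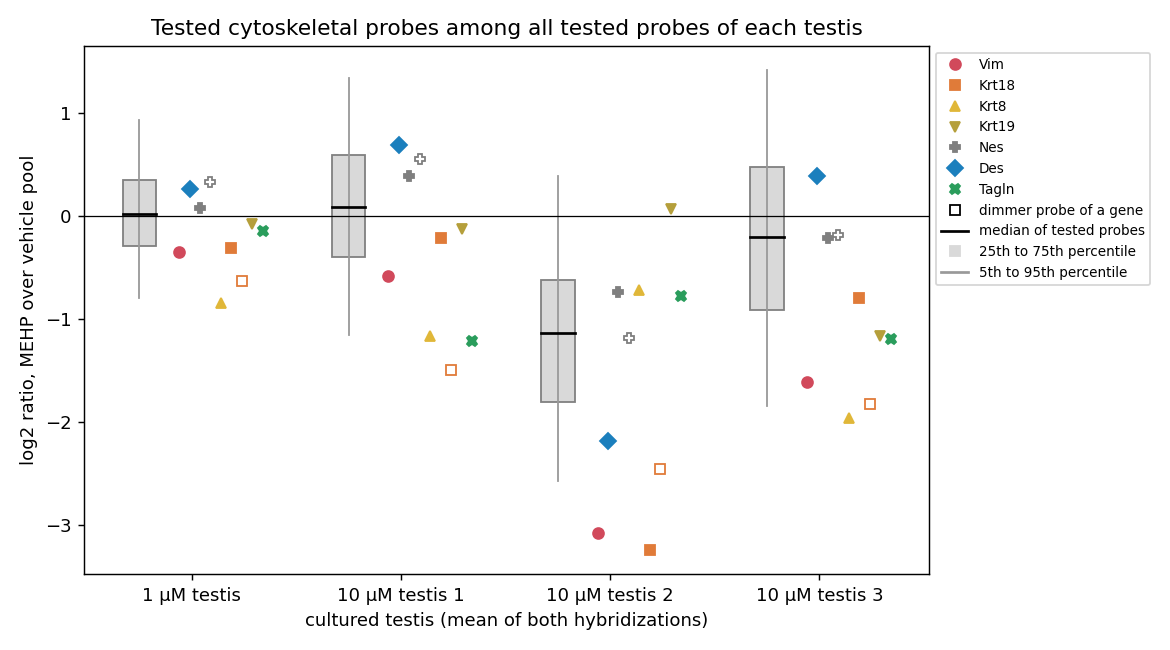
The log2 ratio of each tested member probe (mean of both hybridizations) in the 4 testes, beside the median, quartiles and 5th to 95th percentiles of all tested probes. Des lies above the median in the 1 µM testis and in testes 1 and 3 at 10 µM, and Vim and Krt18 lie below it in all 4 testes.

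The single testis at 1 µM allowed no test. None of the 10 member probes counted at that dose differed by 1.5-fold in both hybridizations, which 2.95% of 13217 probes did as lower and 4.04% as higher. The difference between 10 and 1 µM was fitted over the 4 testes, with the lone testis assumed to vary like the others. For Vim it was -1.41 with a standard error of 1.13. No member probe passed the adjusted threshold (limma's adjusted p was 0.9995 for each of the 9 tested), nor did any of the 9994 probes (0%), of which 24 had an unadjusted p under 0.05. On the slide that held both, testis 3 minus the 1 µM testis was -1.26 for Vim, -0.48 and -1.20 for the Krt18 probes and 0.13 for Des.

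Related genes were read from lists of the same families. Of 28 other intermediate filament genes and their partners, 21 had a probe and 8 were tested by their brightest probe. None passed in either direction at 10 µM, with or without testis 2, and their median was -0.09. Lmna, the nuclear lamin with the brightest probe, had a mean of 0.01 ± 1.01, and Krt1, with the dimmest, 0.47 ± 0.76. Without testis 2 these were 0.58 and 0.91. Of 34 other contractile genes and partners, 16 were tested. None passed by its brightest probe, and their median was -0.68 against -0.42 for all tested probes. Actb, cytoplasmic beta actin and the brightest, gave 0.24, -2.08 and -1.16 in the 3 testes. The dimmest tested probe, one of Actn1, had 0.58 ± 0.81, or 0.97 without testis 2. A dimmer probe of Tpm3, a tropomyosin, passed as higher (1.98 ± 1.91, adjusted p = 0.0438), but the call rested on testis 2, with 0.26, 4.04 and 1.64 in the 3 testes. Without it the mean was 0.95 (adjusted p = 0.115), and another probe of the gene passed as lower (-1.42, adjusted p = 0.0205). The brightest Tpm3 probe had -1.31 (adjusted p = 0.184), or -0.86 without testis 2.

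The marker lists show what else moved with these genes. Of 11 Sertoli cell markers, 7 were tested and none passed, with medians of -0.43, -0.79 and -1.34 in the testes at 10 µM and -0.17 at 1 µM. Without testis 2, 3 of the 7 (Dhh, Inhbb and Ptgds) passed as lower, whereas Sox9 had 0.75 (adjusted p = 0.153). Over all tested probes 9.64% then passed as lower. A dimmer Inhbb probe gave 0.28 (adjusted p = 0.62). The MEHP channel of Dhh and Ptgds was well above background on 1 and 2 of 8 arrays, so their calls rest largely on treated signals close to background. At 1 µM Dhh was lower by the 1.5-fold rule, with -1.78 and -1.17. The summed signal of 10 probes ranged from 3295 to 19324 in the vehicle channel, from 4992 to 10518 in the MEHP channel of testes 1 and 3, from 1678 to 8135 in testis 2 and from 12196 to 14728 at 1 µM. Cldn11 and Fshr were well above background on no array.

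Of 9 peritubular markers, a list that includes Des and Tagln, 4 were tested and none passed, with medians of 0.36, -1.21 and 0.07 at 10 µM and -0.04 at 1 µM. Without testis 2, Gli1, a target of hedgehog signalling from Sertoli cells, passed as higher (1.73, adjusted p = 0.0147), which 7.23% of all tested probes did. Tagln had -1.21 without that testis, but from the dim signals described above, so it is not read as a fall. The summed signal of 7 probes was 1492 to 6158 in the vehicle channel, 2920 to 6157 with MEHP in testes 1 and 3, 743 to 2069 in testis 2 and 3253 to 4296 at 1 µM. Cnn1 and Ptch1 were well above background on no array. Of 7 Leydig cell markers, 5 were tested and Cyp17a1, the steroid lyase, passed as lower (-1.96 ± 0.32, adjusted p = 0.0407). Without testis 2 it had -2.14 (adjusted p = 0.0082), and Insl3 passed as well (-1.55, adjusted p = 0.0165). So did the dimmer Hsd3b1 probe (-1.53, adjusted p = 0.0186), whereas the brighter had -1.30 (adjusted p = 0.0668). The MEHP channel was well above background on 3 of 8 arrays for Cyp17a1 and 2 of 8 for the dimmer Hsd3b1 probe. At 1 µM Cyp17a1 and Insl3 were lower by the 1.5-fold rule, and Star, Scarb1 and Cyp11a1 higher. Over all counted probes 2.95% were lower and 4.04% higher. The MEHP channel of Cyp11a1 was well above background on 1 of 8 arrays. Surface and duct epithelium, which carries the same keratins, had 3 tested markers of 8 (Cdh1, Epcam and Msln), with medians of -1.13, -1.67 and -1.10 at 10 µM and -0.81 at 1 µM. None passed over the 3 testes, and Cdh1 and Epcam passed as lower without testis 2, which 9.64% of tested probes did. At 1 µM Cdh1 (-0.82 and -0.79) and Epcam (-0.87 and -0.76) were lower by the 1.5-fold rule, which 2.95% of all counted probes were. The MEHP channel of Epcam was well above background on 1 of 8 arrays, so its calls rest largely on treated signals close to background. Its 4 probes summed to 1440 to 7109 in the vehicle channel, 1166 to 1877 with MEHP in testes 1 and 3, 464 to 1724 in testis 2 and 1520 to 1974 at 1 µM. The 0 germ, 1 endothelial, 0 blood, 2 macrophage and 1 striated muscle markers tested at 10 µM held no call. At 1 µM Actc1, on the striated muscle and contractile lists, was lower by the 1.5-fold rule (-0.65 and -0.81). The part of cell makeup in the ratios of Vim, Krt18 and Des was not tested.

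Among the probes whose ratios followed those of Vim most closely over the 8 arrays were those of Maged2, Rpl29, Rtcd1 and Asns, with Pearson r from 0.990 to 0.993 among 3822 candidates. The arrays share the vehicle pool and come as pairs of 4 testes, and testis 2 spans most of the range. Over the 6 arrays without it the closest were Itm2a, Rpl5, Eif3s6ip, Eif3s7 and Slc25a4, with r from 0.993 to 0.996. Over the same sets of arrays the brighter Krt18 probe had r of 0.95 and 0.87 with Vim, whereas Des had 0.89 and 0.06. The likeness of Des to Vim thus rested on testis 2.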

How the data were processed

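The data are 8 arrays of rat fetal testis explants (gestational day 14.5, 72 h of culture). Per the labels, images were read with Agilent Feature Extraction (9.1 in the submitters' processing notes). For each spot the authors deposited the log10 ratio of red over green after background subtraction and dye normalization, with its error. The deposited intensity values are the mean and processed signals and the local background of each dye. The authors' lists of changed genes, which hold a fold score and a p-value, were not used.

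Log10 ratios were put on the log2 scale, turned to MEHP over vehicle, and averaged over spots of a probe and over both hybridizations of a testis. Control spots and outlier spots were left out. A ratio is exactly 0 where both signals lay at the noise floor (42.7% to 65.8% of spots). Testing at 10 µM took probes that exceeded background clearly in either channel on 3 or more of 6 arrays, and the count at 1 µM those that did so on 1 or more of 2. In limma 3.58.1 (R 4.3.3, files read with data.table), lmFit and eBayes compared the mean of the 3 testes at the higher dose with 0, and p-values were adjusted by Benjamini-Hochberg. The vehicle pool is a single control sample, so its own spread is left out. The number of arrays limits the precision. The fit was tested on simulated data, and figures were drawn with Python and matplotlib. Accessions matched 10735 of 41012 probes to RefSeq names.

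All member probes are named. From the lists, those named had passed a test or the fold limit, or were the brightest or dimmest tested probe. Sox9 is also given because it went the other way from its list. The most alike genes had the highest Pearson r to Vim. One of them is not reported here. The same was planned for Acta2, which was matched to no probe. The members and lists were chosen with earlier results of these data known. Array names of member keratins that the list of relatives also held were counted as members only. Alternatives were other background corrections and normalizations, centring, filters, single hybridizations, testes left out, variance models, a testis block, a slide block, error weights, other probes and a 2-fold limit.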

Additional observations from a re-analysis of the deposited data

How the results depend on the processing

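The numbers of probes past the adjusted threshold changed widely with the processing. The member ratios changed as well, in size and, for Des, Nes and Krt19, in sign. At 10 µM 222 probes passed, but 0 passed with normexp and loess, loess without background subtraction, no filter on dim probes, both channels above background (51 probes left), the first hybridization alone, a spread for the pool, a testis block or a slide block. Centring gave 121, of which 63 were lower, a trended eBayes 629 and error weights 5768. Leaving out 1 testis gave from 0 (without testis 1 or testis 3) to 1687 (without testis 2), and 211 of the 222 were among these 1687. For the 0 counts, 1766 probes had an unadjusted p under 0.05 in the fit of all testes. The dose difference went from 0 to 1823 probes without the filter and to 1 with the repeat hybridization alone. At 1 µM, 924 probes passed 1.5-fold in both hybridizations, against 66 with normexp and loess, 104 with loess alone, 307 with both channels above background, 5287 and 6275 for the first or repeat hybridization alone and 226 at 2-fold.

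Vim and Krt18 kept their direction at 10 µM in all alternatives that gave a value. Vim passed the threshold with a trended eBayes (adjusted p = 0.0146) and with error weights. The dimmer Krt18 probe lost its call in 11 alternatives, among them normexp and loess (-0.55) and the slide block (adjusted p = 0.356). Signs turned at 10 µM for Des (0.24 with normexp and loess, 0.24 with loess alone, 0.089 centred, 0.39 with error weights), for the brighter Nes probe (0.14, 0.13 and 0.27, 0.33 with the repeat alone, 0.024 with error weights), for the dimmer Nes probe (0.016, 0.035 and 0.18) and for Krt19 (0.044 centred). With 1 testis left out, Des ranged from -0.89 to 0.54 and the Nes probes from -0.48 to 0.090 and from -0.69 to 0.19. The dose difference turned for Des (0.14 with normexp and loess, 0.034 with loess alone), Nes (0.062, 0.065, 0.21 centred, 0.48 with the repeat alone), Krt8 (0.083 with loess alone, 0.048 centred), Krt18 (0.010 with loess alone) and Krt19 (0.15 centred), and with 1 testis left out it ranged from -1.15 to 0.28 for Des, from -0.56 to 0.0065 for Nes and from -0.57 to 0.049 for Krt19. The cause was not tested. Vim minus the contractile median was -1.63 without the filter and -0.57 with normexp and loess. Other probes could not be tried there, since Vim, Des and Tagln have 1 each. No paired analysis was possible because the labels give the single 1 µM testis no replicate number, so the doses share fewer than 2.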
